A study of Coprinopsis cinerea AmutBmut pab1-1 with 201 samples.

Results

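Basidiospore germlings of Coprinopsis cinerea were followed from 4 h to 12 h of germination, through the step from 4 h to 8 h and the step from 8 h to 12 h. They were chosen by their labels alone, as the libraries of germinating basidiospores at these 3 times, 3 at each, which gave 9 of the 201 libraries in the series. The series has 67 groups in all, and the others cover resting spores, oidia, mycelium, light responses, fruiting stages and stresses. All groups come from the strain AmutBmut pab1-1, which carries mutations in both mating type factors and therefore forms fruiting bodies without a mate, and the pab1-1 allele, which makes growth depend on supplied para-aminobenzoic acid. The germling groups received no treatment named in the labels other than time, and their growth conditions and the share of spores that had germinated are unknown from the labels. The labels do not say that replicates were separate cultures, so p-values measure the spread between these libraries, which may be technical. Each library was made from poly(A) RNA by 3′ tag sequencing, so that a gene's count needs no correction for transcript length.

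Basidiospores are the sexual spores shed from the gills of a mushroom. A dormant spore carries stored transcripts and reserves. On germination it takes up water, resumes respiration and protein synthesis, swells, and pushes out a germ tube that grows into a branching hypha. The gene identifiers in the deposited data come without names or products, so genes are described here by their position on the authors' assembly, by their exons and by the other conditions of the series in which they are high.

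The total count of the 9 libraries lay between 7499109 and 13622466. Of 13617 genes, 481 had no count in any of them and 10323 passed the filter on low counts and were tested. Libraries of the same time correlated at 0.965 to 0.993 (Pearson r of log2 CPM, the counts scaled to a common library size, over genes). Library 3 stood apart at 4 h, at 0.969 and 0.973 against 0.988 between libraries 1 and 2. It also stood apart at 12 h, at 0.965 and 0.968 against 0.993. Library 3 of 4 h lay closer to the 8 h libraries (0.911 to 0.927) than library 1 of 4 h did (0.876 to 0.886), while library 3 of 12 h lay farther from them (0.907 to 0.926) than library 1 of 12 h did (0.951 to 0.965). No pair of libraries agreed within sampling noise, the closest being libraries 1 and 2 of 12 h with a chi-square of 2.48 per degree of freedom.

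The first step changed more genes than the second. Between 4 h and 8 h, 1607 genes (15.6% of those tested) were higher and 1412 (13.7%) lower, at a fold of 2 or more and an adjusted p under 0.05 by edgeR's quasi-likelihood test. Between 8 h and 12 h, 388 genes (3.76%) were higher and 869 (8.42%) lower by the same test. The median absolute log2 change over tested genes was 0.67 in the first step and 0.41 in the second. Increases made up 53.2% of the calls in the first step and 30.9% in the second. More genes rose than fell in the first step under the scaling used here, whereas RLE size factors gave 1506 higher and 1517 lower and DESeq2 gave 1520 and 1499. The order also turned without library 1 of 8 h, with 1435 higher and 1538 lower. In the second step decreases outnumbered increases under every setting tried. The 2 steps share the 8 h libraries, so a gene that is by chance high or low at 8 h is pushed in opposite directions in them.

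**Figure D1:**
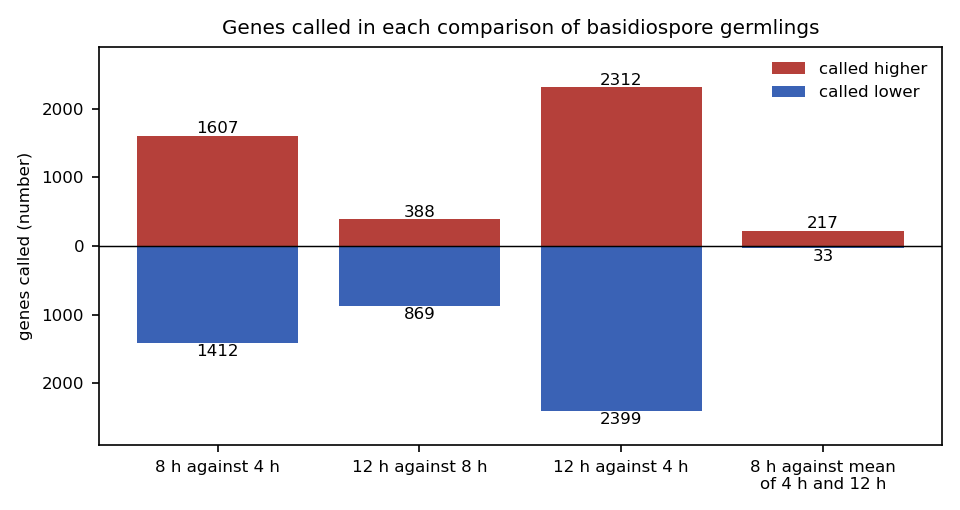
Number of genes called higher (red, upward) or lower (blue, downward) in each comparison, out of 10323 tested. The step from 8 h to 12 h has fewer calls than the step from 4 h to 8 h, and 869 of them are decreases against 388 increases.

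Large decreases were led by transcripts of the resting spore. From 4 h to 8 h, 235 genes fell and 333 rose by a fold of 4 or more, and 19 fell and 11 rose by a fold of 16 or more. In 1399 of the 1412 lower genes and 1573 of the 1607 higher genes, the 3 libraries of one time did not overlap those of the other. The calls were made on the same libraries, which favours such separation, so it is no added evidence for them. The share without overlap among all tested genes was not counted. The groups are bulk samples, in which fewer cells of a type and less RNA per cell cannot be told apart.

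CopciAB_379049.T0 (scaffold 11, 352680 to 355429, 5 exons, 652 residues) had the largest fall among the named genes of the first step. Its level was 5890, 3100 and 1970 CPM in the 3 libraries of 4 h, 31, 31 and 23.2 CPM at 8 h, and 29.8, 23.2 and 2.5 CPM at 12 h. Every 4 h library was far above the rest, while the 8 h and 12 h libraries overlapped. The log2 change was −7.01 ± 0.87 (SE, adjusted p = 0.00031) in the first step and −0.60 ± 0.70 (adjusted p = 0.563) in the second. CopciAB_441197.T0 (scaffold 12, 1013511 to 1014876, 2 exons) went from 6300, 5520 and 3280 CPM at 4 h to 130, 126 and 118 at 8 h and 72.4, 71.6 and 33.7 at 12 h. Its libraries did not overlap between times, and it fell in both steps, by 5.33 ± 0.35 and 1.07 ± 0.30 on the log2 scale (adjusted p = 5.71e-06 and 0.0249). CopciAB_382503.T0 (scaffold 10, 496647 to 498927, 11 exons) fell by 5.69 ± 0.46 in the first step, from 412, 274 and 143 CPM to 5.42, 4.38 and 6.09 CPM. The 6 genes named for the largest log2 fall in this step all belonged to the genes that mark resting basidiospores against mycelium elsewhere in the series, the other three being CopciAB_499996.T0, CopciAB_499066.T0 and CopciAB_487550.T0.

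Some transcripts that were abundant at 4 h went down over both steps. CopciAB_438154.T0 (scaffold 3, 1471423 to 1471883, 3 exons), a short model of 76 residues, was the most abundant transcript at 4 h, with 30400, 22100 and 15900 CPM. It held 2260, 2320 and 2090 CPM at 8 h and 149, 117 and 63.3 CPM at 12 h, with no overlap between times. The fall was 3.36 ± 0.32 (adjusted p = 3.75e-05) and then 4.34 ± 0.34 (adjusted p = 9.63e-05) on the log2 scale. CopciAB_467810.T0 (scaffold 5, 1760403 to 1761203, 4 exons) went from 9290, 7280 and 3990 CPM to 783, 591 and 438 and then to 59.4, 47.8 and 33 CPM. Its log2 changes of −3.50 ± 0.36 and −3.69 ± 0.36 were of like size. CopciAB_170751.T0 (scaffold 11, 557089 to 559391, 2 exons), which is in none of the response sets, had 10400, 9190 and 15600 CPM at 4 h, 5330, 4730 and 4120 at 8 h and 1860, 1540 and 727 at 12 h. It fell by 1.31 ± 0.32 (adjusted p = 0.00605) and 1.78 ± 0.32 (adjusted p = 0.00382). CopciAB_450739.T0 (scaffold 10, 925250 to 926008, 2 exons), high in old and in attached mycelium elsewhere, fell from 13800, 12600 and 8190 CPM to 4390, 4220 and 2740 in the first step (log2 change −1.61 ± 0.44, adjusted p = 0.0134). Without library 3 of 8 h its change was −1.42 and no longer passed the test. Its second step, −1.15 ± 0.44, did not pass (adjusted p = 0.0818).

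The genes that rose most between 4 h and 8 h were near the detection limit or low at 4 h. CopciAB_372973.T0 (scaffold 3, 2725261 to 2726328, 5 exons, 215 residues) had 8.7, 9.25 and 13.1 CPM at 4 h, 239, 199 and 202 at 8 h and 1310, 1380 and 1310 at 12 h. The 3 times did not overlap, and the log2 rise was 4.36 ± 0.20 (adjusted p = 1.13e-06) and then 2.65 ± 0.18 (adjusted p = 4.97e-05). It is a member of the oidial germling and the hypoxia sets described below. CopciAB_207672.T0 (scaffold 1, 2389401 to 2391103, 6 exons), in none of the sets, went from 7.55, 12.3 and 11.2 CPM to 145, 182 and 173 and then to 665, 661 and 973 CPM. It overlaps a gene on the other strand, and its rises were 4.00 ± 0.25 and 2.20 ± 0.22. CopciAB_322827.T0 (scaffold 3, 3210001 to 3211905, 1 exon, 548 residues) was at 2.01, 3.05 and 2.16 CPM at 4 h, 51.8, 46 and 43.1 at 8 h and 106, 105 and 142 at 12 h. It too had no overlap between times, with rises of 4.29 ± 0.22 and 1.33 ± 0.18. CopciAB_488576.T0 (scaffold 10, 226573 to 228886, 8 exons) rose by 4.05 ± 0.31 and 2.70 ± 0.26, from 1.05, 2.58 and 1.88 CPM at 4 h to 162, 164 and 275 CPM at 12 h.

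A different pattern was seen in CopciAB_367246.T0 (scaffold 4, 3234923 to 3237461, 9 exons). It held 8.6, 7.25 and 13.7 CPM at 4 h, 170, 207 and 140 at 8 h and 193, 203 and 57.2 at 12 h. All 8 h libraries were above all 4 h libraries, but library 3 of 12 h was the lowest after 4 h and the 8 h and 12 h groups overlapped. The log2 change was 4.11 ± 0.48 (adjusted p = 0.000142) in the first step and −0.18 ± 0.42 (adjusted p = 0.777) in the second. CopciAB_498859.T0 (scaffold 9, 674189 to 675687, 5 exons) rose by 4.07 ± 0.48 and 1.49 ± 0.37, from 0.382, 1.81 and 0.768 CPM at 4 h, and by 4.76 in the first step without library 2 of 4 h.

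Some abundant transcripts rose as those of the spore fell. The largest gain in CPM over both steps among the named genes was that of CopciAB_381000.T0 (scaffold 6, 203405 to 204559, 4 exons, 221 residues), with 451, 786 and 426 CPM at 4 h, 3720, 3210 and 3210 at 8 h and 9050, 9550 and 14200 at 12 h. Its libraries did not overlap between times, and it rose by 2.61 ± 0.26 (adjusted p = 3.48e-05) and 1.69 ± 0.25 (adjusted p = 0.00114). CopciAB_542396.T0 (scaffold 1, 2798789 to 2800248, 7 exons) had 2590, 3500 and 2870 CPM at 4 h and 4990, 7090 and 7530 at 8 h, a rise of 1.13 ± 0.18. CopciAB_465651.T0 (scaffold 7, 1790790 to 1791581, 3 exons) had 2140, 2450 and 2090 CPM and then 6460, 5260 and 4630, a rise of 1.29 ± 0.15. In their second steps, 0.41 ± 0.18 and 0.45 ± 0.15, both were below a fold of 2 and were not called. CopciAB_167773.T0 (scaffold 2, 2768233 to 2770103, 4 exons) had 1100, 1730 and 3850 CPM at 4 h and 6970, 7470 and 6050 at 8 h. Library 3 of 4 h was the highest of its time, and the rise of 1.62 ± 0.41 (adjusted p = 0.00861) was 2.27 without it.

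**Figure D2:**
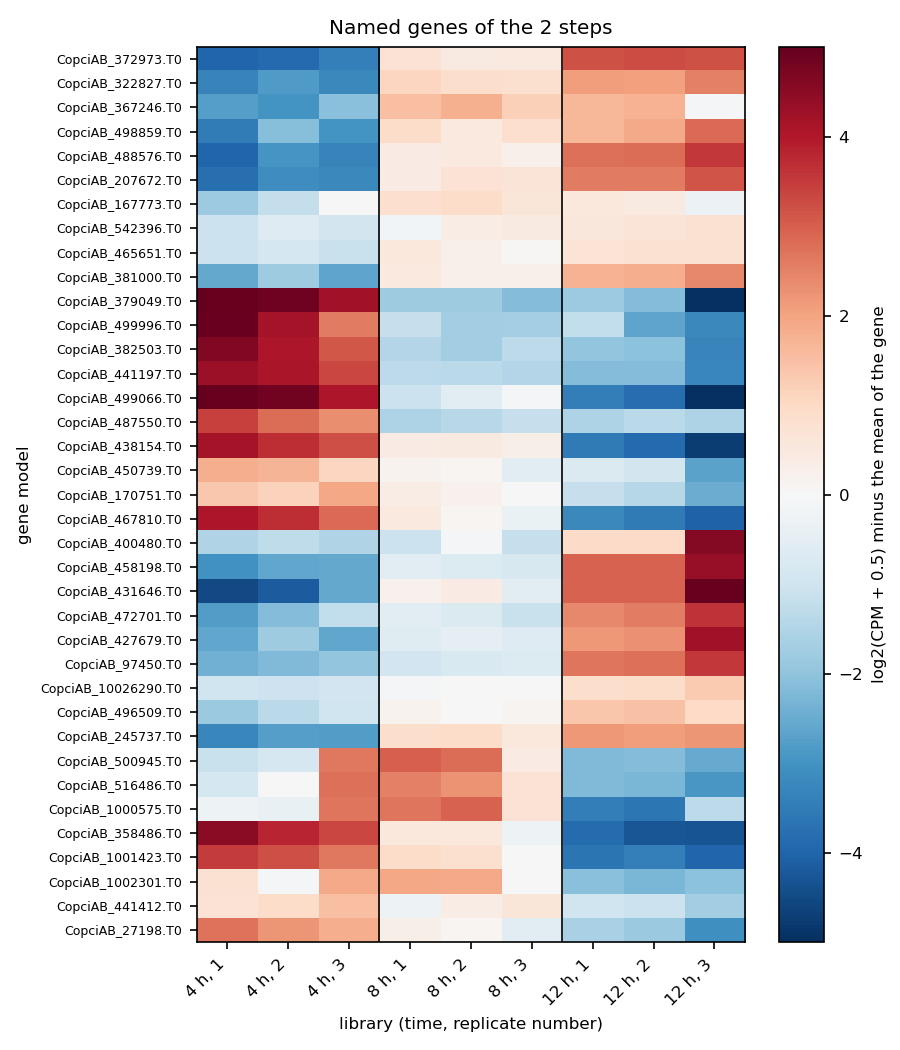
Level of the genes named for the 2 steps in each of the 9 libraries, as log2(CPM + 0.5) minus the mean of the gene, with red above and blue below that mean. Genes that fell from 4 h are red at 4 h, and in several rows library 3 of 4 h or of 12 h differs in shade from its replicates.

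In the second step the largest increases were in genes that were low up to 8 h. CopciAB_458198.T0 (scaffold 13, 237421 to 238196, 4 exons), high in attached mycelium elsewhere, had 0.382, 0.668 and 0.698 CPM at 4 h, 4.37, 3.88 and 3.57 at 8 h and 53.9, 53.7 and 145 at 12 h. Library 3 of 12 h was the highest, and the log2 rise of 4.41 ± 0.41 (adjusted p = 0.000162) was 3.77 without it. CopciAB_97450.T0 (scaffold 11, 1399056 to 1401097, 4 exons), in none of the sets, went from 3.24, 3.75 and 3.99 CPM at 8 h to 45.6, 47.5 and 81.9 at 12 h. That was a rise of 3.99 ± 0.27 (adjusted p = 4.97e-05). CopciAB_472701.T0 (scaffold 1, 3976643 to 3979625, 16 exons) rose from 2.8, 2.38 and 1.75 to 25.3, 27.7 and 58.8 CPM (4.01 ± 0.49).

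Several of these increases were carried to a large part by library 3 of 12 h. CopciAB_431646.T0 (scaffold 7, 1812935 to 1814233, 5 exons) had 79.7, 91.2 and 45.8 CPM at 8 h and 532, 521 and 2590 at 12 h; library 3 was far above the others. The log2 rise was 4.07 ± 0.83 (adjusted p = 0.0102) with that library and 2.87 without it. CopciAB_400480.T0 (scaffold 10, 393469 to 394937, 4 exons), a gene of starved mycelium elsewhere, had 0.175, 0.876 and 0.14 CPM at 8 h and 2.23, 2.27 and 34 at 12 h. Its rise of 5.16 ± 1.36 (adjusted p = 0.0256) was 2.69 without library 3 of 12 h, still past the threshold. It no longer passed under DESeq2 or without any 1 of library 2 of 4 h and libraries 1, 2 and 3 of 8 h. For CopciAB_427679.T0 (scaffold 12, 464486 to 465404, 3 exons) the values at 12 h were 20.5, 22.7 and 86.2 CPM against 2.62, 3 and 2.52 at 8 h, and the rise was 3.99 ± 0.60 with library 3 and 3.00 without it.

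The second-step rises of the named abundant transcripts moved by less than a factor of 1.5 when any 1 library was left out. In CopciAB_381000.T0, described above, library 3 of 12 h was also the highest, and its rise lay between 1.46 and 1.81 under the alternatives. CopciAB_245737.T0 (scaffold 1, 932980 to 934838, 7 exons) had 43.8, 62.9 and 61 CPM at 4 h, 773, 795 and 609 at 8 h and 1880, 1810 and 1950 at 12 h. It rose by 3.70 ± 0.19 (adjusted p = 1.52e-06) and 1.38 ± 0.18 (adjusted p = 0.000453), with no overlap between times. CopciAB_496509.T0 (scaffold 5, 613149 to 615494, 10 exons) rose by 1.47 ± 0.21 and 1.19 ± 0.21, reaching 2690, 2850 and 2080 CPM. CopciAB_10026290.T0 (scaffold 2, 2052752 to 2053099, 1 exon, 75 residues) rose from 1400, 1490 and 1490 CPM to 2810, 2880 and 3710, by 1.10 ± 0.15. Without library 3 of 12 h that rise was 0.97, below a fold of 2.

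Decreases in the second step reached further than increases. At a fold of 4 or more, 259 genes fell and 69 rose, and at a fold of 16 or more 28 fell and 5 rose. CopciAB_358486.T0 (scaffold 5, 1002280 to 1002951, 3 exons), in none of the sets, had 769, 471 and 339 CPM at 4 h, 47.8, 47.4 and 27.6 at 8 h and 1.87, 1.23 and 1.19 at 12 h. It fell by 3.69 ± 0.33 and then fell by 4.8 ± 0.40 (adjusted p = 9.63e-05), with every time apart from the next. CopciAB_1001423.T0 (scaffold 6, 2130331 to 2133128, 3 exons) fell by 2.56 ± 0.29 and then fell by 4.47 ± 0.34, reaching 3.21, 3.88 and 2.5 CPM. CopciAB_27198.T0 (scaffold 1, 197431 to 198463, 3 exons), an early starvation gene elsewhere, fell from 8910, 6230 and 4750 CPM to 1650, 1440 and 917 and then to 446, 373 and 160. It overlaps a gene on the other strand. CopciAB_441412.T0 (scaffold 6, 24977 to 26553, 4 exons) was called in the second step, where it fell by 1.52 ± 0.28, and not in the first, where its change was −0.80 ± 0.28.

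Another 4 genes that fell in the second step had uneven libraries before it. CopciAB_1000575.T0 (scaffold 3, 185693 to 186730, 3 exons), high in resting oidia and in sclerotia elsewhere, had 38.5, 35.8 and 300 CPM at 4 h, 297, 364 and 76.6 at 8 h and 3.75, 3.32 and 18.7 at 12 h. Library 3 of 4 h was as high as libraries 1 and 2 of 8 h, and library 3 of 8 h was lower than these. CopciAB_500945.T0 (scaffold 7, 497097 to 499345, 9 exons) showed the same order, with 1.91, 2.39 and 31.9 CPM, then 40.5, 34.9 and 6.3, then 0.624, 0.663 and 0.395. In CopciAB_516486.T0 (scaffold 3, 682359 to 683330, 4 exons) the values were 2.1, 4.39 and 31.8, then 27.3, 22.4 and 7.49, then 0.535, 0.474 and 0.132 CPM. CopciAB_1002301.T0 (scaffold 11, 598847 to 600796, 3 exons) had 7.65, 4.1 and 17.1, then 17.8, 17.5 and 4.2, then 0.624, 0.474 and 0.659 CPM.

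The 4 genes fell from 8 h to 12 h, with changes of −4.89 ± 1.25, −5.53 ± 1.48, −5.51 ± 1.32 and −4.46 ± 0.78 on the log2 scale (adjusted p = 0.0277, 0.0299, 0.0199 and 0.00399), and none passed the test from 4 h to 8 h. The fall of CopciAB_1000575.T0 was no longer called without library 1 or 2 of 8 h or library 1 or 2 of 12 h, and was −6.11 without library 3 of 12 h. That of CopciAB_500945.T0 was no longer called without library 1 or 2 of 8 h or any 1 library of 12 h, and was also not called with the replicate number as a block or with no filter on low counts. That of CopciAB_516486.T0 was not called without any 1 library of 12 h. CopciAB_1002301.T0 kept its call in each of these settings.

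A contrast of 8 h against the mean of 4 h and 12 h tests whether the second step differs from the first. A fold of 2 in it equals a fold of 4 between the 2 steps, so its calls are stricter than those of the steps. By adjusted p under 0.05 alone, 812 genes passed. At a fold of 2 or more in the contrast, 217 genes (2.1% of those tested) were called higher at 8 h than that mean and 33 (0.32%) lower. With the added demand that every 8 h library lie beyond every 4 h and 12 h library, 97 genes (0.94%) formed a peak and 16 (0.155%) a trough. The count of 250 calls depended on single libraries. Without library 1 of 4 h it was 155, without library 3 of 4 h 481, and without libraries 1, 2 and 3 of 8 h 149, 128 and 153. Without library 3 of both 4 h and 12 h, a setting chosen after seeing the data, it was 609. For peaks and troughs only the call was refitted, while the lack of overlap was still asked of all 9 libraries, the left-out one included. Counted so, peaks numbered 57, 55 and 51 with the call made without libraries 1, 2 and 3 of 8 h. Troughs numbered 10 with the call made without library 1 of 4 h and 9 without library 2 of 8 h.

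CopciAB_443129.T0 (scaffold 3, 3000680 to 3002985, 9 exons), a gene that is high under congo red elsewhere, was a peak with 78.5, 118 and 51.8 CPM at 4 h, 329, 262 and 518 at 8 h and 60.2, 63.6 and 31.2 at 12 h. Every 8 h library was at least at 262 CPM and no other library above 118, and the contrast was 2.5 ± 0.30 (adjusted p = 0.00291). CopciAB_467436.T0 (scaffold 6, 2655873 to 2656706, 2 exons) had 6.41, 10.5 and 20.3, then 78.5, 66.9 and 79.6, then 22, 21.6 and 29.3 CPM (2.11 ± 0.27). CopciAB_443836.T0 (scaffold 11, 355691 to 356548, 2 exons) had 7.07, 8.49 and 20, then 65.8, 67.9 and 81.3, then 31.3, 32 and 23.3 CPM (1.94 ± 0.27). It lies next to CopciAB_379049.T0, described above, on the opposite strand.

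In the remaining named peaks library 3 of 8 h was far above its replicates. CopciAB_364198.T0 (scaffold 9, 1292288 to 1293797, 1 exon) had 4.28, 6.76 and 24.9 CPM at 8 h, at most 2.96 at 4 h and at most 1.52 at 12 h. Its contrast of 2.93 ± 0.51 was 1.79 without that library. CopciAB_195080.T0 (scaffold 4, 1441323 to 1444267, 9 exons) had 90.4, 118 and 310 CPM at 8 h, and its contrast of 2.08 ± 0.44 fell to 1.35 without it and was no longer called. It was also not called without library 1 of 4 h, library 2 of 8 h, or library 1 or 2 of 12 h, nor with the replicate number as a block or with no filter on low counts.

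Troughs were genes that fell from 4 h to 8 h and in which every 12 h library lay above every 8 h library. Of those named, only CopciAB_488324.T0 was called higher in the second step. CopciAB_488324.T0 (scaffold 7, 21627 to 23250, 9 exons) had 1200, 787 and 621 CPM at 4 h, 288, 316 and 281 at 8 h and 585, 639 and 554 at 12 h. The 8 h libraries were below all others, while 4 h and 12 h overlapped. It fell by 1.56 ± 0.22 (adjusted p = 0.00018) and rose by 1.01 ± 0.22 (adjusted p = 0.00704). CopciAB_546324.T0 (scaffold 13, 156540 to 157486, 4 exons) and CopciAB_286471.T0 (scaffold 7, 1871235 to 1872462, 7 exons) fell by 3.15 ± 0.24 and 1.99 ± 0.23. Their second steps, 0.74 ± 0.22 and 0.94 ± 0.22, were below a fold of 2. CopciAB_373210.T0 (scaffold 2, 2842189 to 2842933, 5 exons) had 195, 146 and 131, then 37.9, 35.9 and 37.4, then 50.2, 48 and 51.5 CPM. Its second step, 0.43 ± 0.16, did not pass (adjusted p = 0.0724), nor did that of CopciAB_363541.T0, 0.83 ± 0.75 (adjusted p = 0.444). The contrast of CopciAB_363541.T0 (scaffold 8, 1115336 to 1116316, 7 exons), −2.46 ± 0.65 (adjusted p = 0.0486), lost its call without any 1 library except library 3 of 4 h.

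**Figure D3:**
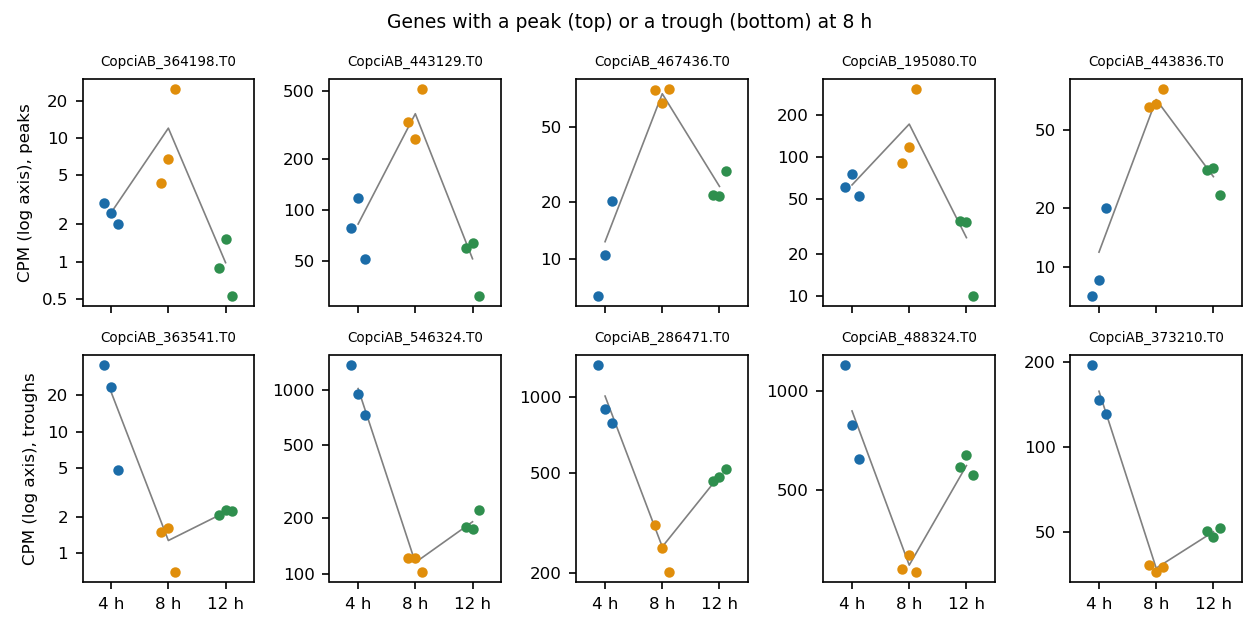
CPM on a log axis of the 5 named peaks (top) and 5 named troughs (bottom) in each library, with points for libraries 1 to 3 from left to right at each time and a line through the means. The peak of CopciAB_364198.T0 rests on 24.9 CPM in library 3 of 8 h, against 4.28 and 6.76 in the others.

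Over the whole interval from 4 h to 12 h, 2312 genes (22.4%) rose and 2399 (23.2%) fell. Of these, 785 rose and 1050 fell by a fold of 4 or more, and 82 rose and 196 fell by a fold of 16 or more. No tested gene was without a count in all 3 libraries of 4 h, so no gene was called as newly present. Among tested genes 2 were without a count in all 3 libraries of 12 h, and both were called lower than at 4 h. CopciAB_540985.T0 (scaffold 1, 3770355 to 3771479, 2 exons), a resting basidiospore gene, had 9.75, 8.3 and 3.63 CPM at 4 h and 1.75, 0.626 and 0.49 at 8 h. It was at least 78.8-fold lower at 12 h, taking 3 counts over the group as the floor. CopciAB_1000241.T0 (scaffold 1, 3732064 to 3732616, 1 exon, 56 residues) had 2.96, 1.43 and 1.19 CPM at 4 h and was at least 20.3-fold lower at 12 h.

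The 100 most abundant genes changed more between 4 h and 8 h than between 8 h and 12 h. Of these, ranked by mean CPM, 58 were the same at 4 h and 8 h, 91 at 8 h and 12 h, and 51 at 4 h and 12 h. Summed CPM are given here as a percentage of the nominal CPM total. They are not shares of a library's counts, since CPM after scaling between libraries do not add up to that total. The scaling factors were 0.961 to 1.1851 at 4 h, 1.0494 to 1.0664 at 8 h and 0.8716 to 0.9111 at 12 h. A lower factor gives a higher sum. For the 100 most abundant genes of 12 h the sums were 17.3% ± 1.66 at 4 h and 30.7% ± 0.779 at 8 h. At 12 h the sum was 41.5% ± 2.34 (SD, n = 3). Those of 4 h summed to 29.8% ± 4.77, 24.0% ± 0.974 and 27.4% ± 1.24. Each list was chosen for its level at its own time, so its sum there is high by that choice. In each library's own counts, its 100 most abundant genes held 29.9% to 33.3% at 4 h. The range was 32.6% to 34.7% at 8 h and 36.4% to 38.8% at 12 h. The 10 most abundant genes of each library held between 9.86% and 11.7% of its counts at 4 h, between 7.02% and 7.66% at 8 h and between 7.55% and 8.84% at 12 h. CopciAB_390376.T0 (scaffold 1, 2607653 to 2609819, 9 exons, 460 residues) was among the most abundant at each time, with 17100, 12100 and 11600, then 16000, 14900 and 15400, then 18200, 18700 and 20900 CPM. The 8 h libraries lay within the range of 4 h, and neither step passed the test (adjusted p = 0.347 and 0.157). Scaled to the depth of the shallowest library, 7499109 counts, a library held 11540.5 to 11832.6 genes at 4 h, 11857.8 to 11912 at 8 h and 11589.1 to 11836 at 12 h.

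Genes were grouped by response sets, each of up to 100 genes that are most strongly higher in 1 group of the series than in another, both outside the 9 germling libraries. In a set with many untested members, those tested may have passed the filter on low counts through the time at which they are high. Counts called in such a set are not a result about the whole set. The set of resting basidiospores (0 h spores over mycelium grown in the dark for 12 h) had most of its tested members called lower in each step. Of its 100 genes, 97 were tested, and 91 (93.8%) fell and 0 rose in the first step, while 76 (78.4%) fell and 1 (1.03%) rose in the second. Of all tested genes 13.7% fell and 15.6% rose in the first step, and 8.42% fell and 3.76% rose in the second, and the shares of tested members given for the further sets are to be read against these. The median log2 change was −2.65 and −2.41, beside 0.04 and −0.04 over all tested genes. Its summed CPM, as a percentage of the nominal CPM total, was 15.1%, 11.3% and 7.67% in the 3 libraries of 4 h. It was 1.57%, 1.45% and 1.07% at 8 h and 0.285%, 0.24% and 0.131% at 12 h. As above, such sums are not shares of a library's counts. Library 3 had the lowest sum at each time, and the times did not overlap. The set was defined on the ungerminated spores with which the same course begins, so its fall describes the course and is no independent evidence. CopciAB_394838.T0 (scaffold 8, 588164 to 588854, 3 exons), its second most abundant member among those called, fell from 9680, 7040 and 4550 CPM to 1110, 1080 and 748 and then to 168, 145 and 53.8.

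Of the genes that mark germinated oidia, the asexual spores, most were called higher in the first step. The set of oidial germlings (oidia germinated for 18 h over resting oidia) had 94 tested members of 100. Of these, 61 (64.9%) rose and 3 (3.19%) fell in the first step, at a median of 1.78, and 27 (28.7%) rose and 3 (3.19%) fell in the second, at a median of 0.68. Its summed CPM, as a percentage of the nominal CPM total, went from 1.24% ± 0.153 at 4 h to 2.28% ± 0.0567 at 8 h. It reached 3.44% ± 0.233 at 12 h (SD, n = 3). Members at a mean of 5 CPM or more went from 63 to 79 and 86. The number that fell in the second step was 1 without library 1 of 12 h or library 2 of 8 h and 6 without library 3 of 4 h. CopciAB_366589.T0 (scaffold 3, 2349744 to 2351212, 5 exons) rose from 1280, 1440 and 1210 CPM to 4620, 4380 and 3290 and was at 4780, 4430 and 3170 at 12 h, with a second step of 0.01 ± 0.19. CopciAB_454076.T0 (scaffold 10, 1048707 to 1049347, 3 exons) rose by 1.5 ± 0.19, from 1060, 1070 and 1070 CPM to 2830, 2940 and 3280, and reached 3640, 4040 and 5970 CPM at 12 h.

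Most genes of growing mycelium were still below 5 CPM at 12 h. This set (mycelium grown in the dark for 12 h over resting basidiospores) had 37 tested members, and of its 100 genes 4, 7 and 10 reached a mean of 5 CPM at 4 h, 8 h and 12 h. Among the tested members 16 (43.2%) rose and 1 (2.7%) fell in the first step, at a median of 1.51, and 8 (21.6%) rose and 2 (5.41%) fell in the second, at a median of 0.77. The second count was 5 without library 1 or 3 of 8 h or without library 3 of 12 h. Members that passed the filter on low counts may have passed through the time at which they are high, so the counts are not a result about the whole set. CopciAB_443979.T0 (scaffold 11, 1589026 to 1589532, 4 exons, 71 residues) had 2.58, 4.58 and 8.44 CPM at 4 h, 20.5, 24.7 and 16.4 at 8 h and 110, 111 and 243 at 12 h. It rose by 1.94 ± 0.44 and 2.92 ± 0.43, and its times did not overlap. CopciAB_136858.T0 (scaffold 6, 1317017 to 1318121, 5 exons) rose from 4.97, 7.25 and 4.4 to 25.5, 28 and 35.2 CPM and then stood at 48, 48.3 and 68.

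In the set of resting oidia the 12 h libraries stood lowest, while the number of genes called in a step depended on single libraries. Of its 100 genes, 46 passed the filter on low counts. A mean of 5 CPM was reached by 15 of the 100 at 4 h, 11 at 8 h and 6 at 12 h. Members may have passed the filter through an early time at which they are high, so the counts are not a result about the whole set. Of its 46 tested members (resting oidia over oidia germinated for 18 h), 13 (28.3%) fell and 1 (2.17%) rose in the first step, at a median of −0.35. In the second 22 (47.8%) fell and 1 (2.17%) rose, at a median of −1.53. The contrast of 8 h with the mean of 4 h and 12 h, which tests the difference between the steps, called 0 members higher and 0 lower, and over all genes 2.1% and 0.32%. The number called higher by this contrast was 10 without library 3 of 4 h, beside 423 over all tested genes. It was 14 without library 3 of both 4 h and 12 h, beside 542. The number that rose in the first step was 10 without library 3 of 4 h, beside 1912 over all tested genes, and 2 without library 3 of 8 h. The number that fell in the second was 9 without library 1 of 8 h, 10 without library 2 of 8 h, 12 without library 1 of 12 h and 9 without library 2 of 12 h. The set's mean log2 CPM was 1.93, 1.77 and 2.54 at 4 h, 2.08, 1.92 and 1.44 at 8 h, and 0.42, 0.23 and 0.14 at 12 h. Levels at 4 h and 8 h thus overlapped, with library 3 the highest at 4 h and the lowest at 8 h, and the 12 h libraries lay below both. CopciAB_463314.T0 (scaffold 9, 1110973 to 1111700, 4 exons), which both kinds of resting spore share, went from 3390, 2370 and 1800 to 248, 193 and 160 and then to 15.2, 10.8 and 4.88 CPM.

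**Figure D4:**
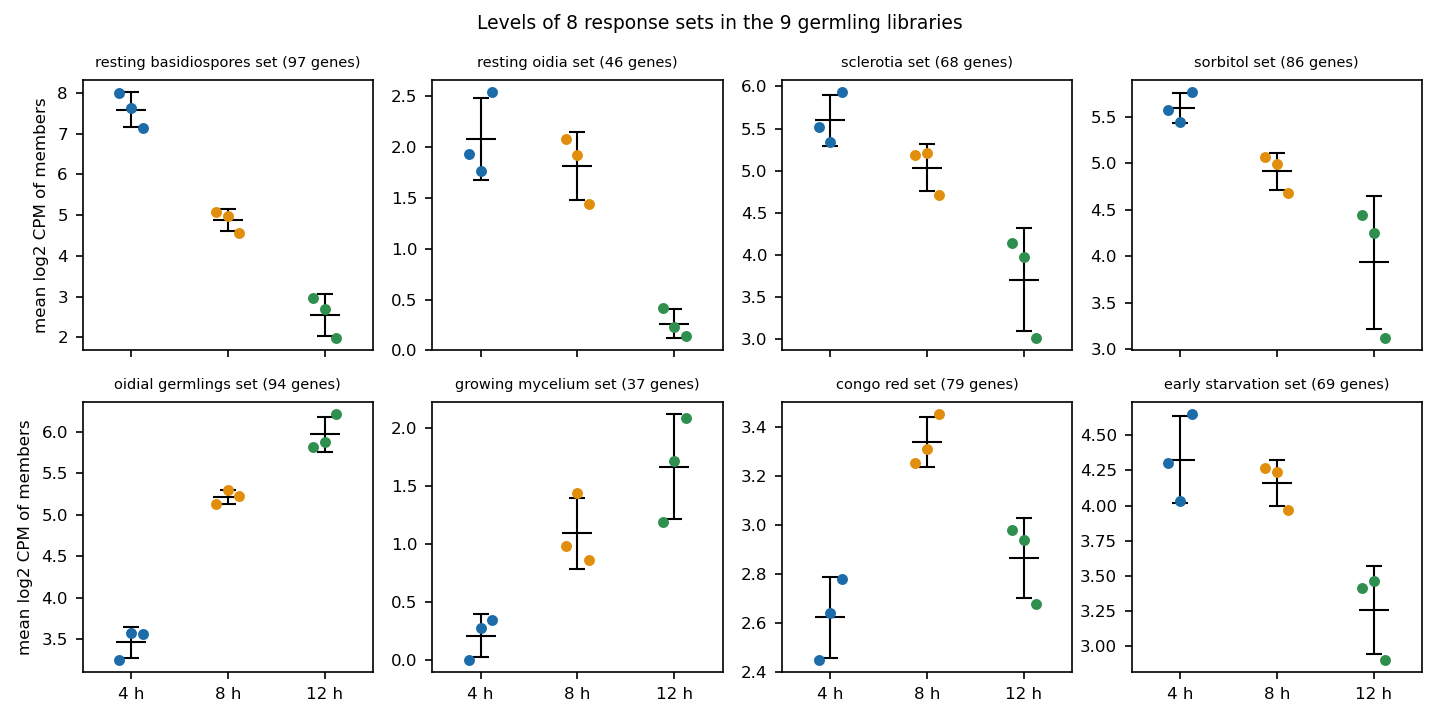
Mean log2 CPM of the tested members of 8 response sets in each library (points, libraries 1 to 3 from left to right), with the mean and SD of the 3 libraries in black and a separate vertical scale in each panel. The resting basidiospore set falls by more than 2 log2 units in each step, the oidial germling set rises, and the congo red set is highest at 8 h.

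Among genes of sclerotia, the resting bodies of the mycelium, and of mycelium under sorbitol, an osmotic stress, more were called lower than higher in each step. In the sclerotium set (over mycelium of 132 h, 68 tested) 27 (39.7%) fell and 2 (2.94%) rose in the first step and 27 (39.7%) fell and 1 (1.47%) rose in the second, at medians of −0.82 and −1.06. In the sorbitol set (over the liquid culture control, 86 tested) 40 (46.5%) fell and 4 (4.65%) rose, then 33 (38.4%) fell and 4 (4.65%) rose, at medians of −0.92 and −0.93. These sets are not separate evidence, since 30 genes belong to both, and the resting basidiospore set shares 19 genes with the first and 16 with the second. The summed CPM of the sclerotium set, as a percentage of the nominal CPM total, was 5.52% ± 1.52 at 4 h. It was 1.09% ± 0.187 at 8 h and 0.445% ± 0.0847 at 12 h. CopciAB_1001696.T0 (scaffold 8, 453296 to 454488, 4 exons), in the sclerotium and the resting basidiospore sets, fell from 8000, 6820 and 3990 CPM to 397, 374 and 325 and then to 66.9, 58.9 and 12.9. CopciAB_472767.T0 (scaffold 8, 1339590 to 1340731, 4 exons), in all 3 of these sets, fell from 5090, 4230 and 2830 to 1100, 787 and 517 and then to 264, 216 and 65.1 CPM.

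CopciAB_444850.T0 (scaffold 10, 528209 to 529865, 9 exons) went the other way. It belongs to the sclerotium, sorbitol, heat shock and copper sets among others, and had 215, 211 and 219 CPM at 4 h, 614, 584 and 451 at 8 h and 1380, 1410 and 582 at 12 h. It was called higher in both steps (1.35 ± 0.29 and 1.03 ± 0.28, adjusted p = 0.00239 and 0.0226), although library 3 of 12 h lay within the range of 8 h.

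In several sets, though not in all, the number of genes that rose in the first step depended on library 3 of 4 h. Over all tested genes that number was 1607 (15.6%) with all libraries and 1912 without library 3 of 4 h. Without that library, 15 genes of the sclerotium set were higher at 8 h than at 4 h where 2 were with it, and 11 of the sorbitol set where 4 were. In the early starvation set (2 h on water agar over mycelium of 60 h, 69 tested) the number was 16 in place of 4. In the set of contact with Trichoderma, a fungal antagonist (64 tested), it was 12 in place of 3, and in the aerial mycelium set (59 tested) 12 in place of 7. With all libraries the shares that rose in these sets were 2.94%, 4.65%, 5.8%, 4.69% and 11.9%, below that of all tested genes. The larger numbers without library 3 of 4 h are thus no sign of a rise particular to these sets. The numbers that fell changed by less than a factor of 1.5 in each of these sets. In the peroxide set (over the liquid culture control, 65 tested) the number that rose, 15, also stayed within that factor without library 3 of 4 h. It was 9 without library 1 of 4 h or library 1 of 8 h. With all libraries the early starvation set had 20 lower genes (29.0%) in each step. The Trichoderma set had 21 (32.8%) and then 18 (28.1%), and the aerial set 16 (27.1%) and then 15 (25.4%), beside 13.7% and then 8.42% of all tested genes. These sets overlap too and are not separate evidence. The Trichoderma set shares 25 genes with the early starvation, 11 with the aerial and 13 with the sorbitol set. The early starvation set shares 12 with the sclerotium set. Leaving out libraries also moved some small counts of higher genes. Without library 3 of 12 h, 5 sclerotium genes and 7 sorbitol genes were higher in the first step and 3 and 8 in the second. For the sclerotium set the first count was 4 without library 2 of 4 h or library 1 or 3 of 8 h, and the second was 0 without library 1 or 2 of 12 h or any 1 library of 8 h. In the second step the Trichoderma set had 3 higher genes, and 1 without library 1 or 2 of 12 h or any 1 library of 8 h.

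The congo red set, genes raised by a dye that binds the cell wall (over the liquid culture control, 79 tested), had its highest mean level at 8 h. In the first step 26 of its members (32.9%) rose and 6 (7.59%) fell, at a median of 0.79. In the second 6 (7.59%) rose and 12 (15.2%) fell, at a median of −0.49. The contrast of 8 h with the mean of 4 h and 12 h called 11 of them higher and 0 lower. That is 13.9% of the tested members at a median contrast of 0.51, beside 2.1% of all tested genes. Other sets had like shares. The oidial germling set had 15 of 94 (16.0%) called higher at the same median of 0.51, and the shares were 11.9% in the old mycelium, 11.5% in the carbon dioxide, 10.8% in the growing mycelium and 10.2% in the aerial set. The oidial germling number was 9 without library 1 of 12 h, 6 without library 1 of 4 h or library 2 of 8 h, and 8 without library 3 of 8 h. In the other 4 sets, of 4 to 6 such genes each, it fell to 3 or fewer without library 1 or 2 of 8 h. The congo red number was 6 and 7 without library 1 or 2 of 4 h, 18 without library 3 of 4 h, 4, 3 and 5 without libraries 1, 2 and 3 of 8 h, and 7 and 6 without library 1 or 2 of 12 h. The set's mean log2 CPM was 2.45, 2.64 and 2.78 at 4 h, 3.25, 3.31 and 3.45 at 8 h and 2.98, 2.94 and 2.68 at 12 h, so that all 8 h libraries were above all others. Without library 1 of 4 h, 17 members rose in the first step. CopciAB_357316.T0 (scaffold 1, 1746281 to 1747283, 7 exons), one of its 2 most abundant members among those called from 4 h to 12 h, was not lower at 12 h than at 8 h. It went from 10.6, 18.1 and 34.8 CPM to 224, 194 and 175 and then 237, 256 and 447. The other, CopciAB_432230.T0 (scaffold 1, 760451 to 760824, 2 exons), fell from 943, 774 and 699 to 115, 103 and 87 CPM and stood at 110, 88.3 and 25 at 12 h.

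The other 13 sets mark later development, light or further treatments. Their medians lay between −0.49 (hyphal knots) and 0.31 (peroxide) in the first step and between −0.70 (heat shock) and −0.08 (hypoxia) in the second, beside 0.04 and −0.04 over all tested genes. The hypoxia set (53 of 59 tested) had 11 higher (20.8%) and 7 lower genes (13.2%) in the first step and 6 higher (11.3%) and 5 lower (9.43%) in the second. The lower shares are close to the 13.7% and 8.42% of all tested genes. In the heat shock set (62 tested) 20 genes (32.3%) fell in the second step, and 13 without library 2 of 12 h, 11 without library 1 of 8 h and 12 without library 2 of 8 h. CopciAB_442991.T0 (scaffold 8, 844633 to 846306, 4 exons) belongs to the oidial germling, hypoxia and copper sets. It had 452, 444 and 325 CPM at 4 h, 385, 575 and 716 at 8 h and 1140, 1140 and 798 at 12 h. It was called from 4 h to 12 h but in neither step alone. In the light set CopciAB_456054.T0 (scaffold 13, 653941 to 658479, 17 exons) rose by 2.09 ± 0.36 and 2.57 ± 0.35, from 8.51, 12.6 and 6.42 CPM at 4 h to 27.8, 47.2 and 42 at 8 h and 179, 166 and 352 at 12 h. It is also an oidial germling gene.

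The libraries as a whole moved from the resting spore towards germinated oidia. Over 12487 genes, the correlation of log2 CPM with resting basidiospores was 0.894 to 0.914 at 4 h, 0.791 to 0.812 at 8 h and 0.702 to 0.744 at 12 h (Pearson r across genes, which are not independent). With oidia germinated for 18 h it was 0.826 to 0.864, then 0.920 to 0.928, then 0.930 to 0.932. Each 4 h library was thus closest to resting basidiospores among the other groups of the series, and each 8 h and 12 h library closest to germinated oidia. With mycelium grown in the dark for 12 h the values were lower, 0.671 to 0.710, 0.766 to 0.779 and 0.795 to 0.811. These correlations share the same genes and library method and are given as a description.

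**Figure D5:**
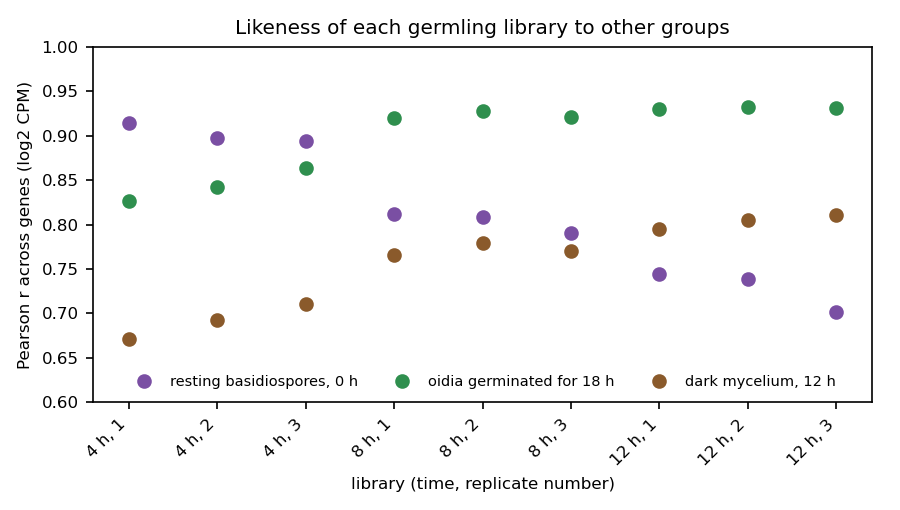
Pearson correlation across 12487 genes of each germling library with the mean of resting basidiospores (purple), oidia germinated for 18 h (green) and 12 h dark mycelium (brown); the vertical axis starts at 0.6. The purple and green points cross between 4 h and 8 h, and the brown points stay below the green ones throughout.

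Some neighbouring genes were called in the same direction. In the first step 15 runs of at least 4 consecutive tested genes were all higher, the longest of 5 genes, and 6 runs were all lower, with at most 4 genes. The second step had no such run, and over the whole interval there were 33 higher and 36 lower runs. Of all tested genes 15.6% were called higher and 13.7% lower in the first step, 3.76% and 8.42% in the second, and 22.4% and 23.2% over the interval. How many runs such shares give among unlinked genes was not tested, so the number of runs is no evidence that neighbours change together. One run of 5 on scaffold 3 (2274969 to 2287518) held no overlapping genes. In it CopciAB_422236.T0 rose by 2.93 ± 0.59, from 13.3, 22 and 18.8 CPM to 84.5, 111 and 216, and its 4 neighbours rose by 1.37 to 2.56 on the log2 scale. Among the latter CopciAB_448103.T0 went from 15.8, 17.6 and 12.1 to 72.5, 64.7 and 76.9 CPM. A run of 4 lower genes on scaffold 1 (3551540 to 3558790) included CopciAB_428031.T0, which is in the resting basidiospore, early starvation, sclerotium, heat shock and sorbitol sets and fell from 1240, 1120 and 1140 to 314, 305 and 267 CPM. The other named run of 5, also on scaffold 3 (700769 to 717649), had 3 members that overlap another gene, so their counts are uncertain. The named lower run on scaffold 3 (2518165 to 2526615) had 2 such members. A further run on scaffold 1 (3302527 to 3307245) consists of 4 models with identical counts and is not separate evidence for each.

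By gene structure, the decreases of the second step were most frequent in genes of 1 exon. Of 500 such genes tested, 73 (14.6%) fell and 18 (3.6%) rose, at a median of −0.31, beside 8.42% and 3.76% of all tested genes. Of 617 genes with 15 or more exons, 40 (6.48%) fell and 22 (3.57%) rose, at a median of −0.06. Without library 1 of 8 h, 10 genes of 1 exon rose and 25 genes of 15 or more exons fell. In the first step 75 genes of 1 exon (15%) rose and 95 (19%) fell, beside 15.6% and 13.7% of all tested genes. Genes whose values were not whole in at least 50% of the libraries with a count numbered 512 among those tested. In the first step 113 of them (22.1%) rose and 59 (11.5%) fell, against 15.2% and 13.8% of the others. Refitted without these genes, the first step had 1395 higher and 1437 lower.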

How the data were processed

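The authors deposited a table of expected counts per gene, not normalized, for 13617 genes of their CopciAB V2 annotation, which was deposited too. The submitters' processing notes name STAR 2.6.1a and featureCounts. No version of featureCounts is stated, nor how it handled strand or reads that map to several genes. Of the nonzero values of the 9 libraries, 14.8% were not whole, and all were rounded to whole numbers. None of the identifiers matched the reference table of 13657 genes (0 matches), so no names, products or sequences are given. Columns of values left unmapped numbered 0.

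The 9 libraries were fitted together with edgeR 4.0.16 in R 4.3.3 (TMM scaling, filterByExpr at a minimum count of 10, robust quasi-likelihood F test, Benjamini-Hochberg adjustment over all 10323 tested genes). Calls needed an adjusted p below 0.05 together with at least a 2-fold change. Standard errors (SE) are the log2 change divided by the square root of F. CPM values used TMM-scaled library sizes, and log2 CPM a prior count of 2. The code was tested on simulated counts, with 50 genes changed at 8 h against 4 h at each of 4 folds. It called 36% of those changed by a fold of 2, which is also the cutoff, and 98% at folds of 4, 8 and 16. Many changes close to a fold of 2 may thus be missed. A gene at 0 counts in a group got a floor of 3 counts over the group. The labels name no molecular identifiers, so floors cover counting error only.

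Named genes were called genes whose groups do not overlap, with a mean of 10 CPM or more in the higher group, mostly whole counts and no overlap on the same strand. The 6 largest log2 changes and the 4 largest CPM changes per step and direction were named, as were the 5 largest peaks and troughs, the 3 most abundant called genes at 0 counts in all 4 h or all 12 h libraries, the 2 most abundant members called over the interval in each response set, and the 2 longest runs of neighbours. The most abundant genes at each time, and neighbours or members mentioned outside this rule, were chosen after their values were seen. Response sets held up to 100 genes with the largest log2 change among genes called higher between 2 groups, with a mean of 5 CPM or more in the higher one. The members, lists and rules were chosen with earlier results of these data known. The alternatives were RLE factors, DESeq2 1.42.0, no filter, other library choices, a replicate block, and leaving out single libraries or genes whose values were mostly not whole.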

Additional observations from a re-analysis of the deposited data

Results flagged for a closer look

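In a direct test of whether the second step differed from the first, 812 genes passed by adjusted p under 0.05 alone. At a fold of 4 or more between the steps, 217 genes were higher at 8 h than the mean of 4 h and 12 h and 33 were lower. Both counts moved with single libraries, as given above for their sum, and what part library 3 of 4 h has in them was not tested beyond leaving it out.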

How the results depend on the processing

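The counts of genes called in both steps and over the whole interval stayed within a factor of 1.5 under every alternative run, among them RLE factors, DESeq2, no filter, the replicate block and leaving out each library. Same-numbered libraries did not deviate together (correlations of deviations from −0.172 to 0.108), so the replicate block is only an alternative. With it 3007 genes were called in the first step, 1243 in the second, 4695 over the interval and 226 at the bend of 8 h. The counts at the bend moved past that factor. Leaving out single libraries gave 128 to 481 genes, 114 to 423 of them higher and 14 to 58 lower, and leaving out library 3 of both 4 h and 12 h gave 609, 542 and 67. DESeq2 called 59 genes lower at 8 h in place of 33. Of 90 tests of 81 named genes, 79 kept their call under every alternative and none changed direction. Besides those given above, the rise of CopciAB_167773.T0 from 4 h to 12 h lost its call under 10 alternatives, that of CopciAB_439474.T0 without library 3 of both 4 h and 12 h (1.27), and the fall of CopciAB_443013.T0 without library 1 of 4 h (−0.97). The cause was not tested. The depth of 7499109 counts or more per library limits what can be said of genes that failed the filter.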
